A study of Mus musculus with 12 samples.

Results

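The 48 genes described here encode the machinery that builds and maintains the primary cilium. They were taken by gene symbol from a fixed list, and the choice was made with earlier results of these data known. All 48 were found among the 53599 genes of the deposited count table, and all 48 passed the filter on low counts that left 16210 genes for testing. Nphp4, Kif17 and Tmem231, with few counts in every early library, passed it through the groups in which they were high. The list holds 12 genes of the IFT-B train, 5 of the IFT-A train, 5 motor subunits, 9 BBSome subunits and chaperonins, 4 genes for small GTPases and a lipid phosphatase, 11 genes of the transition zone and basal body, and the transcription factors Rfx2 and Rfx3.

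The primary cilium is a single, non-motile projection of the cell surface, built on a basal body that derives from the mother centriole. Intraflagellar transport (IFT) carries cargo along its microtubules: IFT-B trains move toward the tip with kinesin motors, and IFT-A trains return with a dynein. The BBSome moves membrane proteins in and out of the cilium, and the transition zone at its base acts as a gate. In the liver, cholangiocytes carry a primary cilium into the bile duct lumen, where it senses flow and bile composition, whereas hepatocytes are known to lack one.

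RNA was sequenced in bulk from cells sorted from mouse liver, with 3 libraries in each of 4 groups, and every group was wild-type, had received AAV8-TBG-Cre and was fed 0.1% DDC for 8 weeks starting 1 week after the virus. AAV8-TBG-Cre delivers Cre recombinase under a hepatocyte promoter, so that EGFP marks hepatocytes and their descendants, and DDC is a compound that injures bile ducts. The early group was EGFP+ Cd24- Epcam-, the intermediate group EGFP+ Cd24+ Epcam-, and the full group EGFP+ Cd24+ Epcam+. The biliary epithelial cell (BEC) group was EGFP- Epcam+, so it rests on the absence of the lineage label. No group came from mice on a normal diet, and the animals behind each library and their age were not given in the sources used here. P-values therefore measure only the spread between these libraries. In bulk RNA, a change in the number of cells that express a gene and a change in its RNA per cell cannot be told apart.

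Total counts per library ran from 15112893 to 19731887. Of 10 hepatocyte markers, all 10 were lower in intermediate than early and lower again in full, and all 10 biliary markers were higher in full than early, where the direction of Epcam, one of them, was set by the sort. The summed level of the 10 cell cycle markers was 100.9 to 233 CPM (read counts scaled to a common, TMM-adjusted library size) in early, 80.7 to 91.5 in intermediate, 361 to 412 in full and 358 to 463 in BEC. The 8 macrophage markers summed to 24.99 to 26.9, 30.5 to 39.3, 65.2 to 94.1 and 133 to 158 CPM in the same order. Csf1r made that rise: without it the sums were 20.9 to 23.0, 5.85 to 14.8, 4.21 to 20.6 and 4.87 to 38.3 CPM. Adgre1, which had the lowest counts of the 8, was at 1.05 CPM or less in each library. In BEC against full, 2 of the 7 macrophage markers tested were higher and 0 lower, against 10.7% and 10.6% of all genes. Their median log2 fold change was 0.90. Stellate cell and fibroblast markers summed to 110 to 321 CPM in early and 48.6 to 84.1 in full, and endothelial markers to 16.3 to 26.8 and 7.57 to 11.9. No B cell, T and NK cell or neutrophil marker passed the filter on low counts. The part of these other cell types and of cell division in the results was not tested.

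At each sorted step, far more cilium assembly genes were higher than lower. Between early and intermediate, the step marked by Cd24, 40 of the 48 genes were higher and 1 was lower by edgeR's quasi-likelihood test at an adjusted p under 0.05, against 28.7% higher and 25.7% lower among all genes tested. Their median log2 fold change was 1.11, against 0.06 for all genes. Between intermediate and full, the step marked by Epcam, 30 were higher and 1 lower, against 20.8% and 19.8% of all genes, with a median of 0.44 against 0.01. Between full and BEC, 18 were higher in BEC and 1 lower, against 10.7% and 10.6%, with a median of 0.31 against 0.00. Across both steps, full against early, 40 were higher and 1 lower, against 39.1% and 32.1%, with a median of 1.60 against 0.14. All 40 calls of genes higher in full than early held whichever library of the 2 groups was left out. So did 36 of the 40 at the first step, where those of Ift172, Arl3, Nphp4 and Rfx2 did not, and 21 of the 30 at the second. Only 8 of the 18 in BEC against full held in this way, those of Ift22, Ift122, Wdr19, Dync2li1, Bbs2, Nphp4, Tmem67 and B9d1. The number higher in BEC than full fell to 10 without full replicate 1 and to 11 without BEC replicate 2. With the replicate number as a block it was 20, since Ift172 (0.37, edgeR adjusted p 0.0078) and Tctn1 (0.35, edgeR adjusted p 0.0317) were then called too. Neighbouring comparisons share the libraries of the group between them. Nphp4, Kif17 and Tmem231, which passed the filter through later groups, are counted among the 40 in both comparisons with early.

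The median change of the 48 genes from the early mean was −0.09, 0.07 and 0.04 on the log2 scale in the early libraries, 1.05, 1.17 and 1.12 in intermediate, 1.53, 1.61 and 1.68 in full, and 1.98, 1.94 and 1.85 in BEC. No library of one group reached the range of another. Over all genes tested, the same median was between 0.06 and 0.16 in every intermediate, full and BEC library. Group means ran upward from early through intermediate and full to BEC for 36 of the 48 genes (75%), against 22.3% of all genes tested. The 12 others were Ift20, Ift27, Ift46, Ift52, Ift57, Traf3ip1, Bbs5, Bbs7, Bbs10, Bbs12, Arl3 and Rfx3.

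**Figure D1:**
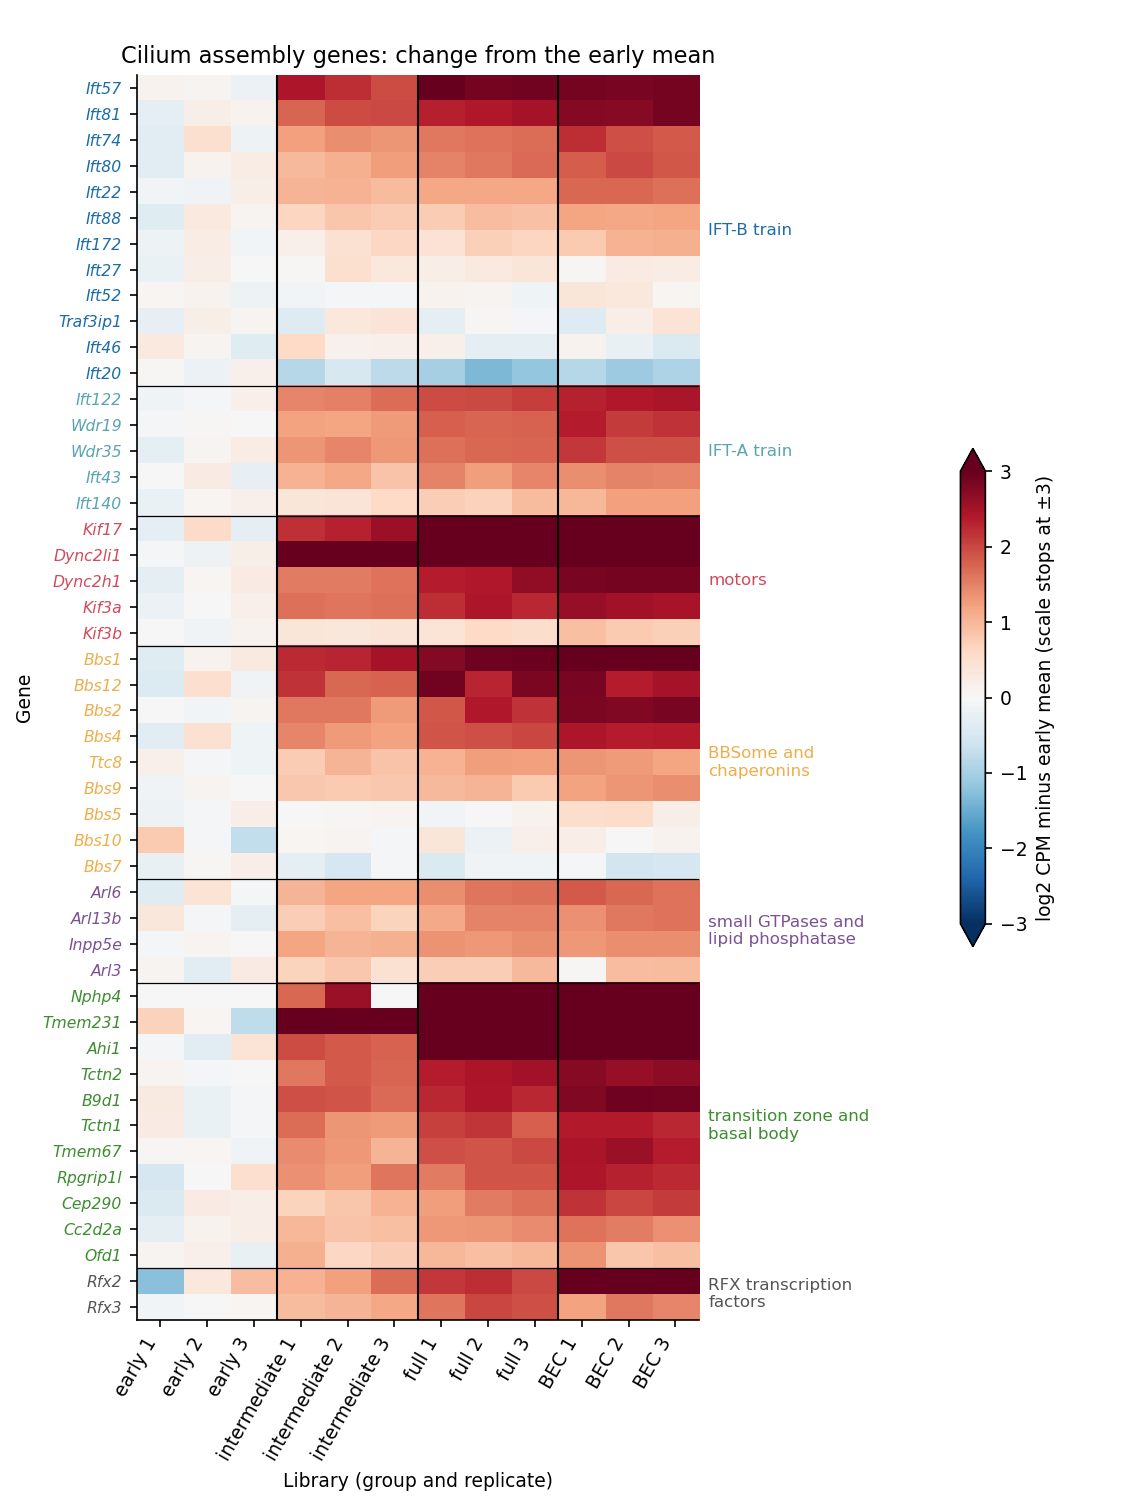
Change of each of the 48 genes from its early mean, in log2 CPM (rows, grouped by role) in each of the 12 libraries (columns); red is above the early mean, blue below, and the colour scale stops at 3 in both directions. Most rows deepen in red from early to BEC, while Ift20 turns blue and 7 rows, among them Ift52, Bbs5 and Bbs7, stay near white.

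The scale on which counts are compared matters for directions here. When libraries were scaled by total counts alone, the median of all genes moved to 0.72 in intermediate against early, 0.21 in full against intermediate and 1.0 in full against early. The members' median stood 1.05, 0.43 and 1.46 above that of all genes with either scaling. The number of members called higher was then 45, 38 and 47, and none was called lower in these 3 comparisons, against 59.4%, 32.3% and 66.4% of all genes called higher. Ift46, Traf3ip1, Bbs7 and Bbs10, whose small negative changes from early to full were not called with TMM factors, were then called higher (0.72, 0.78, 0.64 and 0.86, edgeR adjusted p 0.00312, 0.00569, 0.00661 and 0.0193). Of all calls, 85.6% were then higher in intermediate than early, against 52.8% with TMM factors, 72.6% against 51.2% at the second step, and 81.8% against 54.9% for full against early.

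Rfx2 and Rfx3 encode RFX transcription factors, which bind the X-box motif in promoters of cilium genes. Rfx2 was at 0.633, 2.09 and 3.24 CPM in the early libraries, 3.52, 4.0 and 5.55 in intermediate, 7.57, 8.03 and 6.87 in full and 15.4, 15.7 and 16.95 in BEC. The early and intermediate libraries came close to each other, and the BEC libraries stood apart from all others. Rfx2 was higher in full than early (log2 fold change 1.92 with SE 0.35, edgeR adjusted p 0.00022) and higher in BEC than full (log2 fold change 1.10 with SE 0.29, edgeR adjusted p 0.014). The latter call was lost without full replicate 3, at an edgeR adjusted p of 0.0603. Its difference between full and intermediate was not called (log2 fold change 0.78 with SE 0.31, edgeR adjusted p 0.0575), but was with the replicate number as a block (0.81, edgeR adjusted p 0.0252). It was also called with each other scaling tried, with DESeq2, without a filter on low counts, with only the libraries compared and without intermediate replicate 3 (adjusted p from 0.00712 to 0.0474).

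Rfx3 was at 5.22, 5.64 and 5.83 CPM in early, 10.8, 11.4 and 12.6 in intermediate, 17.1, 22.5 and 21.5 in full and 13.1, 16.9 and 15.4 in BEC. The first 3 groups did not overlap, and the BEC libraries fell between the intermediate and the full ones. Rfx3 rose at the first step (log2 fold change 1.06 with SE 0.16, edgeR adjusted p 6.79e-05) and at the second (log2 fold change 0.81 with SE 0.14, edgeR adjusted p 0.000475). It was the only member called lower in BEC than full (log2 fold change −0.43 with SE 0.14, edgeR adjusted p 0.0449). That call did not hold with median-of-ratios factors (−0.41, edgeR adjusted p 0.0513) or without any one of full replicate 2, full replicate 3, BEC replicate 1 and BEC replicate 3. Rfx3 was higher in full than early (log2 fold change 1.87 with SE 0.16, edgeR adjusted p 1.1e-07). Of the 6 other RFX genes, 3 were tested and all 3 were higher in full than early, by log2 fold changes of 0.99 (Rfx7), 0.85 (Rfx1) and 0.76 (Rfx5).

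Since the members moved together, their promoters were searched for the X-box, written here as GTNNCC, a gap of 2 or 3 bases, and GNAAC, on both strands, where a place that matched on both counted once. Promoter windows of 250 bases before to 50 after the gene's start came from RefSeq on GRCm38.p6, which is not the GRCm39 build named for the counts. Windows were found for 43 members and none for Ift80, Ift81, Ift122, Dync2li1 and Tmem67. A match was found in 12 of the 43 (27.9%), against 3.68% of all 32851 windows and 4.91% of the 11575 tested genes with a window. The 12 were Ift22, Ift57, Ift74, Bbs1, Bbs4, Bbs7, Kif17, Nphp4, Tmem231, Tctn1, Tctn2 and Ahi1. The median log2 fold change from early to full was 2.68 for the 12 with a match and 1.33 for the 31 without, given as a description. For all tested genes with a window it was 0.42 with and 0.10 without. A match is a description of letters and not a bound site.

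The matches of the 5 genes with the largest fitted change from early to full, apart from Ift57, are shown 5′ to 3′ on the gene's strand, with the match in capitals, together with Bbs7, the only one of the 12 that was not called higher. They lie at chr4:152477903-152477932 (Nphp4, + strand), chr8:111933781-111933810 (Tmem231, - strand), chr4:138262170-138262198 (Kif17, + strand), chr10:20952560-20952589 (Ahi1, + strand), chr19:4906605-4906634 (Bbs1, - strand) and chr3:36613489-36613518 (Bbs7, - strand).
Nphp4: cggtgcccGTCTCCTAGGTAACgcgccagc
Tmem231: cgccgtcgGTTGCCGTGGAGACtcggcgct
Kif17: tcacggagGTTGCCCAGCAACggcgaacg
Ahi1: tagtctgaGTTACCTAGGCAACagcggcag
Bbs1: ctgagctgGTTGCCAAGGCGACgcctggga
Bbs7: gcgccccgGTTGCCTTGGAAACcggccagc
The match began 231 bases before the start in Nphp4, 73 before it in Kif17 and 121 before it in Bbs7. In Tmem231, Bbs1 and Ahi1 it began after the start.

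Ift57 held 2 matches within its window, 87 and 60 bases before the start, and its change is described below. The 250 bases before its start, at chr16:49699044-49699293 (+ strand), are shown with both matches in capitals.
Ift57: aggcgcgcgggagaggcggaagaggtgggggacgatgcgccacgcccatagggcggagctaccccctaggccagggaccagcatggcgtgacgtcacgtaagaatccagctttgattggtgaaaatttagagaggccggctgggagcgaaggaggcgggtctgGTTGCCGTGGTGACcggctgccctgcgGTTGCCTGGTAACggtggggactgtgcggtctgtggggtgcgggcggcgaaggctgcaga

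The IFT-B train carries cargo toward the ciliary tip, and its members were divided. Of its 12 genes, 7 were higher at the first step (58.3%, against 28.7% of all genes) and 3 at the second (25%, near the 20.8% of all genes), and Ift20 was lower at both. Ift57, Ift81, Ift74, Ift80, Ift22, Ift88 and Ift172 were higher in full than early, whereas Ift27, Ift46, Ift52 and Traf3ip1 were not called. Ift57, whose promoter is printed above, was at 6.41, 6.37 and 5.26 CPM in early, 32.8, 28.1 and 23.7 in intermediate, 48.5, 44.8 and 45.4 in full and 44.6, 43.8 and 44.3 in BEC. Each of the first 3 groups stood apart, and the BEC libraries lay just below the range of full. It was higher in full than early (log2 fold change 2.94 with SE 0.13, edgeR adjusted p 2.82e-10). The change was larger at the first step than at the second (log2 fold change −1.51 with SE 0.21, edgeR adjusted p 0.000257 for the second minus the first).

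Ift81 and Ift74 encode the pair that binds tubulin on the train. Ift81 was at 5.30, 7.28 and 6.88 CPM in early, 21.9, 25.1 and 25.5 in intermediate, 32.8, 34.4 and 37.04 in full and 44.3, 43.3 and 47.7 in BEC, with no overlap between groups. It was higher in full than early (log2 fold change 2.42 with SE 0.13, edgeR adjusted p 1.08e-09) and higher in BEC than full (log2 fold change 0.38 with SE 0.11, edgeR adjusted p 0.0251). The latter call was lost without any one of full replicates 1 and 2 and BEC replicates 2 and 3, at edgeR adjusted p from 0.0531 to 0.103, and without a filter on low counts. Ift74 stood at 7.39 ± 2.30 CPM in the early group and was higher in intermediate, at 18.02 ± 0.961 CPM (SD, n = 3; log2 fold change 1.29, edgeR adjusted p 3.03e-05), and neither later step was called.

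Ift88, a core subunit whose loss in mice is widely used to remove cilia, moved less. It was at 10.5, 16.7 and 14.3 CPM in early, 21.3, 24.5 and 23.3 in intermediate, 23.3, 25.95 and 25.3 in full and 31.3, 30.6 and 30.8 in BEC. Its early libraries were all below the others, intermediate and full overlapped, and the BEC libraries were the highest. It was higher in full than early (log2 fold change 0.85 with SE 0.14, edgeR adjusted p 9.76e-05). Of that change, a share of 0.873 was already reached in intermediate.

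Ift20 ran the other way. This subunit is also known to sit at the Golgi, where it takes part in sending membrane proteins to the cilium. It was at 42.8, 37.4 and 46.6 CPM in early, 23.2, 30.4 and 24.6 in intermediate, 21.1, 16.5 and 18.9 in full and 23.03, 19.8 and 22.2 in BEC. All 3 early libraries were above every other library, and BEC overlapped full. It was lower in intermediate than early (log2 fold change −0.70 with SE 0.13, edgeR adjusted p 0.000534), in full than intermediate (log2 fold change −0.47 with SE 0.13, edgeR adjusted p 0.0123) and in full than early (log2 fold change −1.17 with SE 0.13, edgeR adjusted p 2.94e-06). The second of these calls was lost without intermediate replicate 2 and without full replicate 2. Scaled by total counts alone, none of the 3 was called, and the log2 fold changes were −0.03, −0.27 and −0.30, the last with an edgeR adjusted p of 0.0504.

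The 4 IFT-B genes without a call had intervals that leave room for small changes in full against early. The log2 fold change was 0.02 (95% interval −0.22 to 0.26) for Ift52, −0.14 (95% interval −0.56 to 0.28) for Ift46, −0.09 (95% interval −0.57 to 0.39) for Traf3ip1 and 0.29 (95% interval −0.02 to 0.61) for Ift27. Ift46 was at 39.1 ± 8.61 CPM in early, 47.5 ± 9.37 in intermediate and 35.4 ± 6.19 in full (SD, n = 3). With the replicate number as a block it was higher in intermediate than early (0.29, edgeR adjusted p 0.0244) and lower in full than intermediate (−0.42, edgeR adjusted p 0.00297). Ift27 was called higher in full than early with upper-quartile factors (0.47, edgeR adjusted p 0.0121), with total counts (1.16, edgeR adjusted p 6.51e-06) and without early replicate 2 (0.38, edgeR adjusted p 0.0486).

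The IFT-A train, which brings cargo back to the cell body and imports membrane proteins, had 5 genes on the list. Ift43, Ift122, Ift140, Wdr19 and Wdr35 were each higher at the first step and again at the second, and 3 of them (Ift122, Ift140 and Wdr19) were higher in BEC than full. Of all genes, 28.7%, 20.8% and 10.7% were higher in these comparisons. The second-step calls of Ift122 and Wdr19 held whichever library was left out, but those of Ift43, Ift140 and Wdr35 were lost in 4, 3 and 4 of 6 such fits (edgeR adjusted p from 0.0617 to 0.144). The libraries at issue were intermediate replicates 1 and 3 and full replicates 1 and 3 for Ift43, intermediate replicates 1 and 2 and full replicate 3 for Ift140, and intermediate replicates 1 and 3 and full replicates 2 and 3 for Wdr35. The call of Ift140 between BEC and full was lost without any one of full replicates 1 and 2 and BEC replicates 2 and 3 (edgeR adjusted p from 0.141 to 0.172). Ift122 had the largest change of the 5 from early to full (log2 fold change 2.01 with SE 0.10, edgeR adjusted p 9.09e-10), from 12.3 ± 1.32 CPM to 49.5 ± 2.22 CPM (SD, n = 3). Ift140 had the smallest (log2 fold change 0.80 with SE 0.12, edgeR adjusted p 4.62e-05). The mean level of Wdr19 was 9.79 ± 0.266 CPM in early, then 23.1 ± 0.881, 33.7 ± 0.634 and, in BEC, 45.7 ± 4.59 CPM (SD, n = 3), and its groups did not overlap.

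The motors changed most among the roles, with a median log2 fold change of 2.47 from early to full over 5 genes. Dync2li1, a light intermediate chain of the dynein that drives the return train, was at 1.58, 1.46 and 1.86 CPM in early, 21.6, 24.4 and 22.6 in intermediate, 35.1, 39.3 and 39.5 in full and 53.04, 56.4 and 54.9 in BEC. The 4 groups lay far apart relative to their spread. It was higher in intermediate than early (log2 fold change 3.80 with SE 0.13, edgeR adjusted p 2.91e-10) and in full than early (log2 fold change 4.53 with SE 0.13, edgeR adjusted p 1.2e-11). The second step was smaller than the first by 3.07 on the log2 scale (SE 0.19, edgeR adjusted p 3.34e-07).

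Dync2h1, the heavy chain of the same dynein, was at 7.28, 9.37 and 10.7 CPM in early, 26.5, 26.6 and 28.1 in intermediate, 46.7, 47.8 and 57.2 in full and 65.7, 66.3 and 66.5 in BEC. Its groups did not overlap, and it was higher in full than early (log2 fold change 2.47 with SE 0.13, edgeR adjusted p 1.12e-09). Kif3a and Kif3b are the motor subunits of the kinesin that pulls IFT-B trains outward. Kif3a rose from 11.04 ± 1.29 CPM in early to 54.8 ± 4.26 CPM in full (SD, n = 3; log2 fold change 2.31 with SE 0.11, edgeR adjusted p 3.19e-10). Kif3b started at 41.3 ± 2.91 CPM in early, reached 58.8 ± 3.63 CPM in full, and changed least among the motors (log2 fold change 0.51 with SE 0.09, edgeR adjusted p 0.000124).

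Kif17 encodes another ciliary kinesin and was at the limit of detection in early. Its counts were 0, 1 and 0 in early, 8, 10 and 12 in intermediate, 24, 48 and 37 in full, and 41, 52 and 50 in BEC. Every later library was above the early ones. The ratio of full to early was 57.0, with a 95% counting interval from 10.02 to 2273, and that of intermediate to early was 20.8, from 3.46 to 850.1. Such intervals cover counting error only, because PCR copies of a molecule are counted as separate reads. Since Kif17 passed the filter through the later groups, it had to differ from early, and no p is given for that. Full against intermediate was called (log2 fold change 1.45 with SE 0.40, edgeR adjusted p 0.0108), but not without full replicate 2 (1.18, edgeR adjusted p 0.0607).

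**Figure D2:**
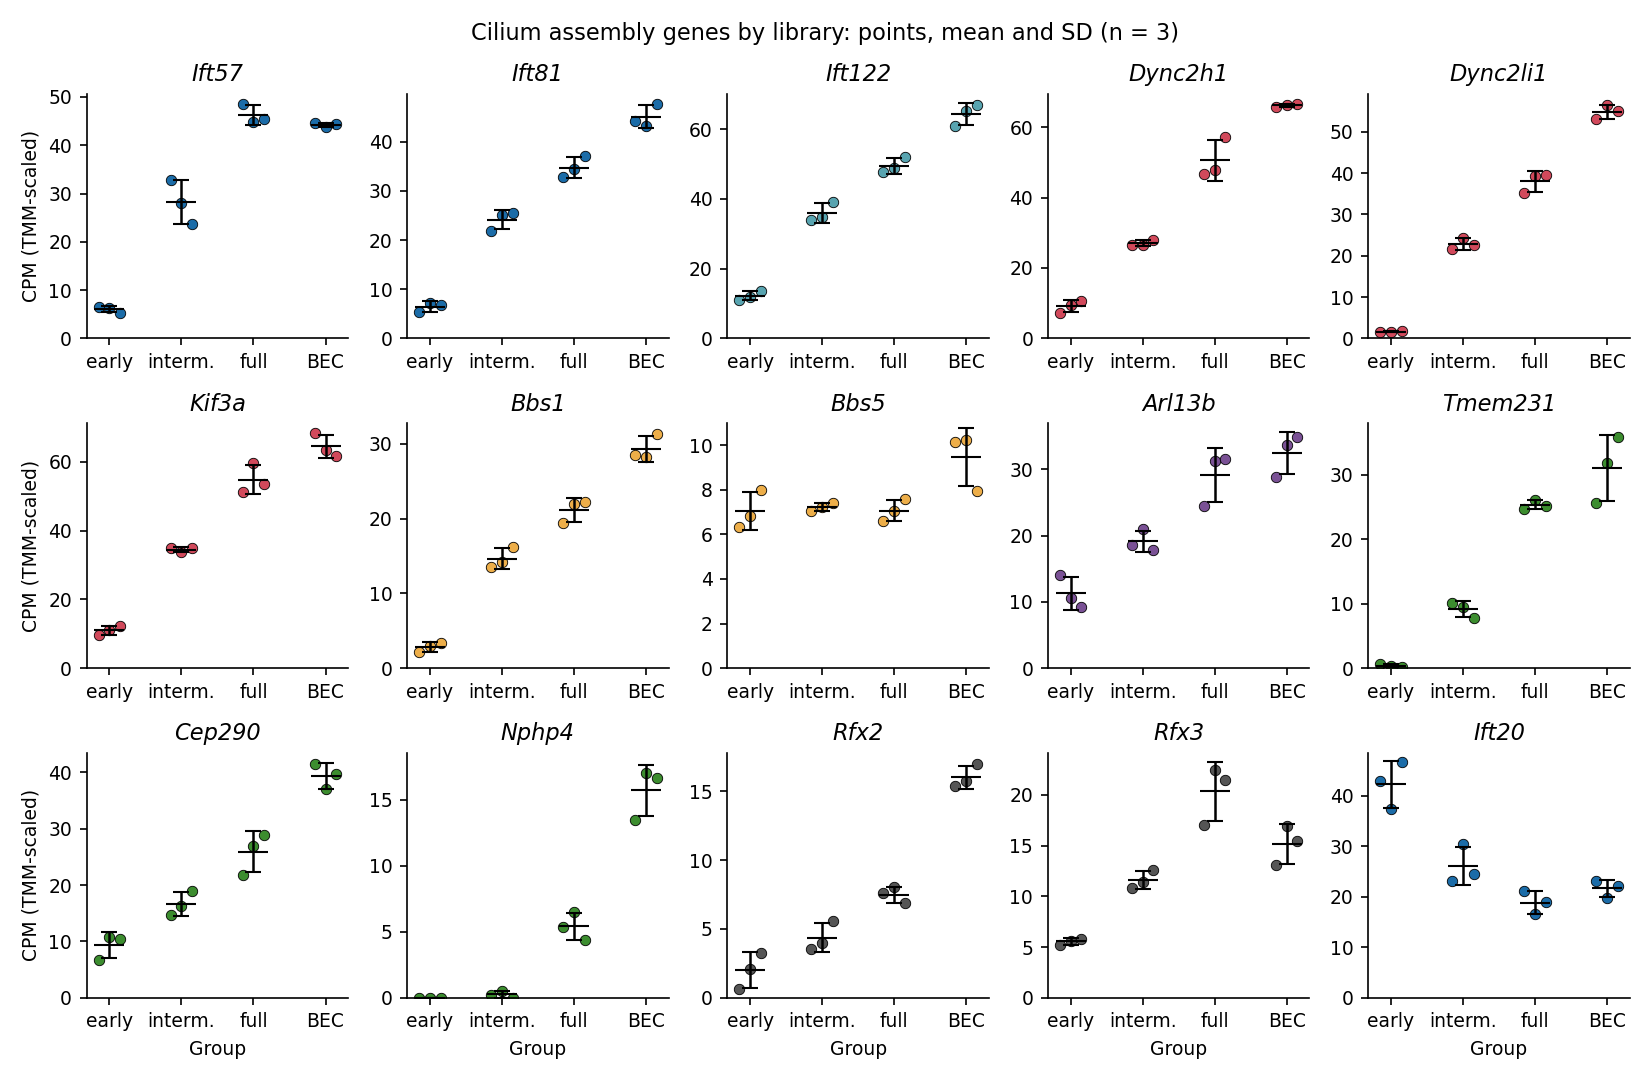
Level of 15 cilium genes in each library, in CPM on TMM-scaled library sizes (vertical axes from 0, 1 scale per gene), by group; points are libraries and bars the mean and SD (n = 3). Tmem231 and Dync2li1 lie near 0 in early and above 7 CPM in every later library, Bbs5 stays between 6.33 and 8.01 CPM up to full, and Ift20 is highest in early.

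The BBSome and its chaperonins were split between genes that rose and genes that were not called. Of 9 genes, 6 were higher at the first step and 5 at the second, and 4 were higher in BEC than full, against 28.7%, 20.8% and 10.7% of all genes. At the second step the calls of Bbs12 and Ttc8 were each lost in 4 of 6 fits that left out 1 library (edgeR adjusted p from 0.0658 to 0.138). These were intermediate replicates 2 and 3 and full replicates 1 and 3 for Bbs12, and intermediate replicates 1 and 3 and full replicates 2 and 3 for Ttc8. Between BEC and full, the call of Bbs4 was lost without any one of the 6 libraries (edgeR adjusted p from 0.101 to 0.139), that of Bbs9 without any one of full replicate 3 and BEC replicates 2 and 3 (from 0.0540 to 0.0906), and that of Bbs1 without full replicate 1 or BEC replicate 3 (0.0834 and 0.0816). Bbs1, through which the BBSome is recruited to membranes, was at 2.14, 3.001 and 3.40 CPM in early, 13.5, 14.1 and 16.2 in intermediate, 19.4, 21.9 and 22.3 in full and 28.5, 28.2 and 31.3 in BEC. Its groups did not overlap, and the second step was smaller than the first (log2 fold change −1.83 with SE 0.25, edgeR adjusted p 0.000241). Bbs1 was higher in full than early (log2 fold change 2.90 with SE 0.16, edgeR adjusted p 1.86e-09).

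Bbs2, another core subunit, was at 4.82, 4.64 and 5.18 CPM in early, 14.8, 14.9 and 11.9 in intermediate, 17.9, 26.1 and 22.2 in full and 35.1, 34.1 and 35.8 in BEC. The BEC libraries were above full (log2 fold change 0.66 with SE 0.14, edgeR adjusted p 0.0027), and full replicate 1 was the lowest of its group. Bbs4, Bbs9, Ttc8 and the chaperonin Bbs12 were also higher in full than early, with log2 fold changes of 1.94, 0.93, 1.18 and 2.80. Bbs5, Bbs7 and the chaperonin Bbs10 were not called between neighbouring groups by edgeR with TMM factors. With total counts Bbs5 was called higher at the first step (0.70, edgeR adjusted p 0.00208). DESeq2 called Bbs5 higher in BEC than full (0.43, DESeq2 adjusted p 0.0391), as did edgeR without BEC replicate 3 (0.53, edgeR adjusted p 0.0471). Bbs5 was at 6.33, 6.82 and 8.01 CPM in early, 7.04, 7.23 and 7.42 in intermediate, 6.59, 7.05 and 7.57 in full and 10.2, 10.3 and 7.95 in BEC, so the first 3 groups overlapped. In full against early its log2 fold change was 0.00 (95% interval −0.35 to 0.35), that of Bbs7 −0.22 (95% interval −0.63 to 0.18) and that of Bbs10 −0.01 (95% interval −0.68 to 0.67). Bbs10 varied widely among the early libraries, at 3.94 ± 2.11 CPM (SD, n = 3).

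Compared per length of merged exons (GENCODE annotation), the 7 BBSome subunits were least alike in early. The highest mean level was 8.09 times the lowest in early, 3.39 times in intermediate, 3.21 times in full and 5.49 times in BEC, in CPM per kilobase. Bbs1 was the lowest in early, at 0.371 CPM per kilobase, and Ttc8 the highest, at 3.00. In full, Bbs1 stood at 2.76 and Ttc8 at 6.81 CPM per kilobase. The lowest subunit was then Bbs7, at 2.47 in early, 2.12 in full and 1.93 in BEC, and the highest in BEC was Bbs2, at 10.6.

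The small GTPases Arl3, Arl6 and Arl13b and the phosphatase Inpp5e, which keeps the lipid makeup of the ciliary membrane distinct, were all 4 higher at the first step. Of all genes, 28.7% were higher there, 20.8% at the second step and 10.7% in BEC than full. Arl6, Arl13b and Inpp5e were higher again at the second, where the calls of Arl6 and Inpp5e were lost without a filter on low counts. They were also lost without intermediate replicate 2 or 3 or full replicate 3, that of Arl6 without intermediate replicate 1 or full replicate 2, and that of Inpp5e without full replicate 1 (edgeR adjusted p from 0.0510 to 0.142). None of the 4 was called between BEC and full (0.08 in the median, from −0.14 to 0.17). Arl13b, which marks the ciliary membrane, was at 14, 10.6 and 9.23 CPM in early, 18.5, 20.9 and 17.8 in intermediate, 24.4, 31.3 and 31.6 in full and 28.9, 33.6 and 34.9 in BEC. Its first 3 groups did not overlap, and full and BEC did. It was higher in full than early (log2 fold change 1.36 with SE 0.16, edgeR adjusted p 3.52e-06). Inpp5e rose from 19.8 ± 0.906 to 50.8 ± 1.56 CPM (SD, n = 3; log2 fold change 1.36 with SE 0.09, edgeR adjusted p 7.29e-09), but 20.3% of its exon bases overlap Pmpca on the opposite strand, and whether counting used strand was not given in the sources used here.

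All 11 genes of the transition zone and basal body were higher at the first step, 9 were higher again at the second, and 5 were higher in BEC than full, against the same 28.7%, 20.8% and 10.7%. The second-step call of B9d1 was lost without intermediate replicate 3 or full replicate 2 (edgeR adjusted p 0.0672 and 0.0647). Tmem231, a membrane protein of the transition zone gate, was at 0.633, 0.364 and 0.162 CPM in early, 10.1, 9.53 and 7.76 in intermediate, 24.7, 26.1 and 25.2 in full and 25.6, 31.7 and 35.8 in BEC. Its early libraries were at or near the floor of 3 counts, which equals 0.237 to 0.273 CPM there, and the later groups were far higher. The fitted log2 fold change was 4.53 (SE 0.29) in intermediate against early and 6.0 (SE 0.27) in full against early. Since Tmem231 passed the filter through the later groups, it had to differ from early, and no p is given for that. The second step (log2 fold change 1.47 with SE 0.17, edgeR adjusted p 1.26e-05) was smaller than the first. The difference of 3.06 on the log2 scale (SE 0.41) rests on the few early counts.

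Nphp4, a scaffold of the transition zone, was the one member with no counts in early. Its counts were 0 in each early library, 4, 10 and 0 in intermediate, 126, 145 and 101 in full, and 280, 365 and 365 in BEC. In CPM this was 0.251, 0.548 and 0 in intermediate, 5.36, 6.47 and 4.42 in full and 13.5, 17.01 and 16.7 in BEC. Against a floor of 3 counts in each early library, Nphp4 was at least 21.6-fold higher in full and at least 62.7-fold higher in BEC, and since it passed the filter through these groups, no p is given. Intermediate was near the floor, at 1.06 times the early floor of 3 counts, so no rise is shown there. Its call against early was lost without any one early library and without intermediate replicate 2. Full was higher than intermediate (log2 fold change 4.29 with SE 0.49), by 5.42 without intermediate replicate 2 and 3.70 without intermediate replicate 3. No p is given here either, for the same reason of the filter. BEC was higher than full (log2 fold change 1.54 with SE 0.33, edgeR adjusted p 0.00506). With Nphp4 set to its bound, the median of the 48 genes at the first step was 1.10 instead of 1.11.

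Ahi1, a transition zone protein mutated in Joubert syndrome, was at 0.791, 0.637 and 1.13 CPM in early, 3.52, 3.23 and 3.11 in intermediate, 7.66, 8.12 and 8.70 in full and 9.59, 12.8 and 10.7 in BEC. Its 4 groups did not overlap, and its second step was among the 4 largest of the members (log2 fold change 1.31 with SE 0.19, edgeR adjusted p 9.2e-05). Cep290, which links the microtubules of the transition zone to the membrane, was at 6.72, 10.8 and 10.4 CPM in early, 14.6, 16.3 and 18.9 in intermediate, 21.8, 26.9 and 28.9 in full and 41.5, 36.9 and 39.7 in BEC. The groups followed each other without overlap. Cep290 was higher in full than early (log2 fold change 1.48 with SE 0.17, edgeR adjusted p 3.59e-06) and in BEC than full (log2 fold change 0.61 with SE 0.16, edgeR adjusted p 0.0128), a call lost without full replicate 1 (edgeR adjusted p 0.0661).

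Tctn1, Tctn2, B9d1, Tmem67 and Cc2d2a, which belong to the same gate as Tmem231, were higher in full than early with log2 fold changes of 1.99, 2.46, 2.35, 1.96 and 1.33. Of the bases of Tctn1 exons, 19.0% overlap Hvcn1 on the opposite strand. Rpgrip1l, a scaffold beside Nphp4, changed by 1.74 and Ofd1, a protein of the basal body and centriolar satellites, by 0.96. Neither was called between full and intermediate. Tmem67, B9d1 and Rpgrip1l were among those still higher in BEC than full, by 0.54, 0.55 and 0.53. The call of Rpgrip1l was lost without any one of the 6 libraries (edgeR adjusted p from 0.0774 to 0.185) and with total counts (0.0525), whereas those of Tmem67 and B9d1 held without each of them.

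Of the 48 genes, 18 changed more at the first step than at the second, and 0 changed more at the second. The contrast of the second step against the first, both in log2 fold change, was thus lower for 18 and higher for 0, against 10.8% lower and 5.64% higher among all genes tested by edgeR's quasi-likelihood test. At an unadjusted p under 0.05, 30 were lower and 0 higher. The median of this contrast was −0.68 for the members (−0.66 with Nphp4 at its bound) and −0.08 for all genes. The 18 were Ift22, Ift57, Ift74 and Ift81 of IFT-B, Ift122, Wdr19 and Wdr35 of IFT-A, Kif3a, Dync2h1 and Dync2li1 of the motors, Bbs1, Bbs2 and Bbs9, Inpp5e, and Tmem231, Tctn1, Tctn2 and B9d1. Both steps use the intermediate libraries, so these differences share them. Of the 18 calls, 12 held whichever of the 9 libraries was left out. Those of Dync2h1 and Bbs2 were each lost in 7 of these 9 fits and with median-of-ratios factors, DESeq2 or only the libraries compared. That of Ift74 was lost in 6 and that of Bbs9 in 4, and over these 4 genes the edgeR adjusted p of the lost calls was 0.0503 to 0.162. The calls of Tctn1 and Wdr19 were each lost in 1, without intermediate replicate 1 (0.130) and without intermediate replicate 3 (0.0558). With median-of-ratios factors 16 were lower. With total counts 37 were, but then 35.2% of all genes were lower too, and the median of all genes was −0.54. With the replicate number as a block 22 were lower, since Ift46, Ift80, Ift88 and Rpgrip1l were then called too.

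Of the change from early to full, the 40 members called higher had reached a median share of 0.720 in intermediate (quartiles 0.674 and 0.792). The 6340 genes called higher in that comparison had reached 0.659, and 23.2% of them changed more at the first step, against 18 of the 40 members (45.0%). Ift88 and Bbs9, both at 0.873, and Ift22 at 0.863 were nearest to completion in intermediate. Arl13b at 0.563 and Rfx3 at 0.567 had the lowest shares after Nphp4, whose share of 0.255 rests on fitted values at 0 counts. Both levels behind a share include the early libraries.

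**Figure D3:**
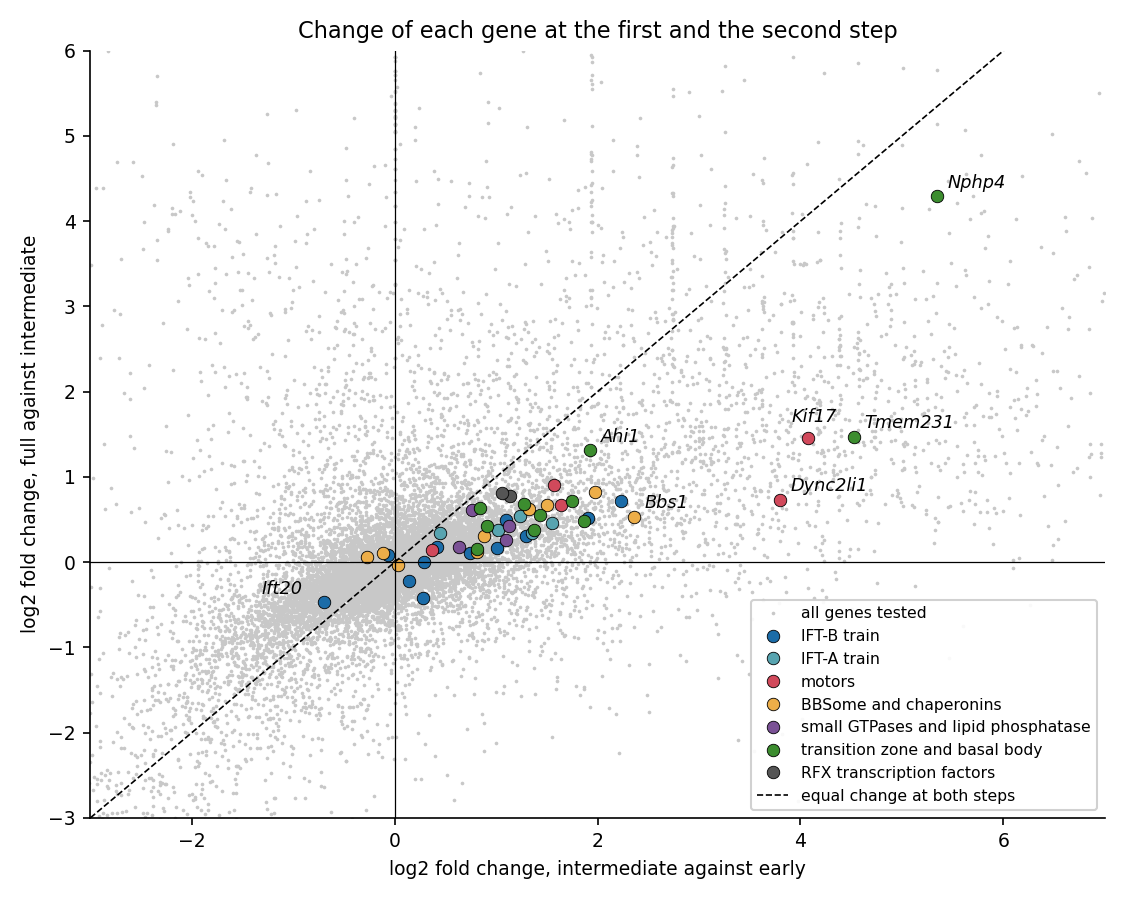
Log2 fold change of each gene from early to intermediate (horizontal) and from intermediate to full (vertical), with the 48 cilium genes coloured by role over all genes tested in grey; some grey genes lie outside the axes, and the dashed line marks equal change at both steps. Most coloured points lie below the line, led by Dync2li1 and Tmem231, and Ift20 is lower at both steps; the fitted place of Nphp4 depends on its 0 counts in early.

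Lists of other cilium genes were counted in the same fit, in full against early, where 39.1% of all genes were higher and 32.1% lower. Among 24 further train, BBSome and transition zone genes, 19 were higher and 2 lower. Kif7, a kinesin-like protein at the ciliary tip, had 6 counts in early, below 3 a library on average, and 497 in full, a ratio of 43.3 with a 95% counting interval from 19.8 to 119. The next largest changes were in Ttc26, another IFT-B subunit (2.99), and Mks1 of the transition zone (1.67), and Bbip1 (−0.66) was among those lower, but stood at 0.20 with total counts (edgeR adjusted p 0.233). Among 20 genes of the basal body and of cilium initiation, 15 were higher and 2 lower. They were led by Cep97, which caps the centriole and holds back cilium growth (1.88), Ttbk2, the kinase that starts cilium growth (1.70), and Rabl2 (1.68), while Ehd1 (−1.22) and Rab8a (−0.88), which act on the ciliary vesicle, were lower. With total counts Ehd1 stood at −0.35 and Rab8a at −0.01, the latter no longer called (edgeR adjusted p 0.0147 and 0.888).

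Of 10 genes linked to cilium disassembly, 6 were higher and 0 lower, with Nedd9 at 1.98, Kif24 at 1.35 and Tchp at 1.33. The other 4 included Aurka, at 0.25, and Nek2, at −0.11 (0.76 with total counts, edgeR adjusted p 0.0376). In intermediate against early, 4 of the 10 were higher (Nedd9, Tchp, Trim32 and Kif2a) and 4 were lower, against 28.7% and 25.7% of all genes. The lower ones were Aurka (−1.0), Nek2 (−2.42) and Plk1 (−1.70), all known for roles in mitosis, and Hdac6 (−0.28). Of the 10 cell cycle markers, 7 were lower there too. Aurka, Nek2 and Plk1 had values of 2.26, 4.74 and 4.66 in the contrast of the second step against the first. All 10 cell cycle markers were higher in full than intermediate. With total counts Nek2 was still lower in intermediate than early (−1.76, edgeR adjusted p 0.000608), but Aurka (−0.34) and Plk1 (−1.04) were not called, and Hdac6 was called higher (0.38, edgeR adjusted p 0.00443). Of the 7 cell cycle markers, Mki67, Cdk1 and Birc5 were then still called lower and the other 4 were not called. How far division bears on these genes was not tested.

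The cilium is where Hedgehog signalling is received and relayed. Of 12 genes of that pathway, 8 were tested and 7 were higher in full than early, 0 lower. Smo, the membrane protein that signals from the cilium, rose by 3.17 and mainly at the first step (2.65), with the second smaller by 2.14 on the log2 scale (edgeR adjusted p 7.32e-05). Evc and Evc2, which act beside Smo at the base of the cilium, rose by 3.80 and 3.32. Gpr161, a ciliary receptor that restrains the pathway, had 2 counts in early and 686 in full, a ratio of 179 with a 95% counting interval from 49.5 to 1485. The targets Gli1 and Hhip and the factor Gli2 were below the filter, with at most 23 counts over all 12 libraries for any of them. Ptch1, also a target, was well detected, with 16154 counts over the 12 libraries.

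Sensory proteins of the cholangiocyte cilium were tested for 6 of 8 genes, and all 6 were higher in full than early. Pkhd1, which encodes fibrocystin, rose by 3.28, and most of it at the first step. Adcy3 (3.06) and the channel Trpv4 (3.02) rose later. Neither was called at the first step, and both were higher in the contrast of the second step against the first (2.27 and 3.33, edgeR adjusted p 0.00622 and 0.00119).

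Genes of motile cilia also moved, although primary cilia do not beat. Of 20 genes, 18 were tested, 12 were higher in full than early and 1, Cfap44, was lower (−1.12, but −0.25 and not called with total counts, edgeR adjusted p 0.227). Foxj1, the master factor of motile ciliogenesis, was at 0.554, 2.18 and 1.21 CPM in early, 42.6, 59.1 and 58.9 in intermediate, 102, 121 and 117 in full and 153, 236 and 244 in BEC. Every later library was far above early, and the BEC libraries were above full. Its log2 fold change was 5.38 at the first step and 6.46 from early to full (edgeR adjusted p 4.78e-10). Spag6l and Tekt1, parts of the motile axoneme, had 0 counts in early, and against the floor of 3 counts per library they were at least 20.2-fold and 3.49-fold higher in full. Spag16, also at 0 counts in early and counted among the 12, had 16 counts in full, a level 0.928 times that floor, so no rise is shown for it. Between full and BEC, 13 of the 18 were higher in BEC and Dnah5 was lower, against 10.7% and 10.6% of all genes. Mcidas, which starts the making of many cilia per cell, had 0 counts in all 12 libraries, where 3 counts is the most that a count of 0 allows in each. With the genes at 0 in early set to their bound, the median change of this list from early to full was 2.57 instead of 3.06.

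**Figure D4:**
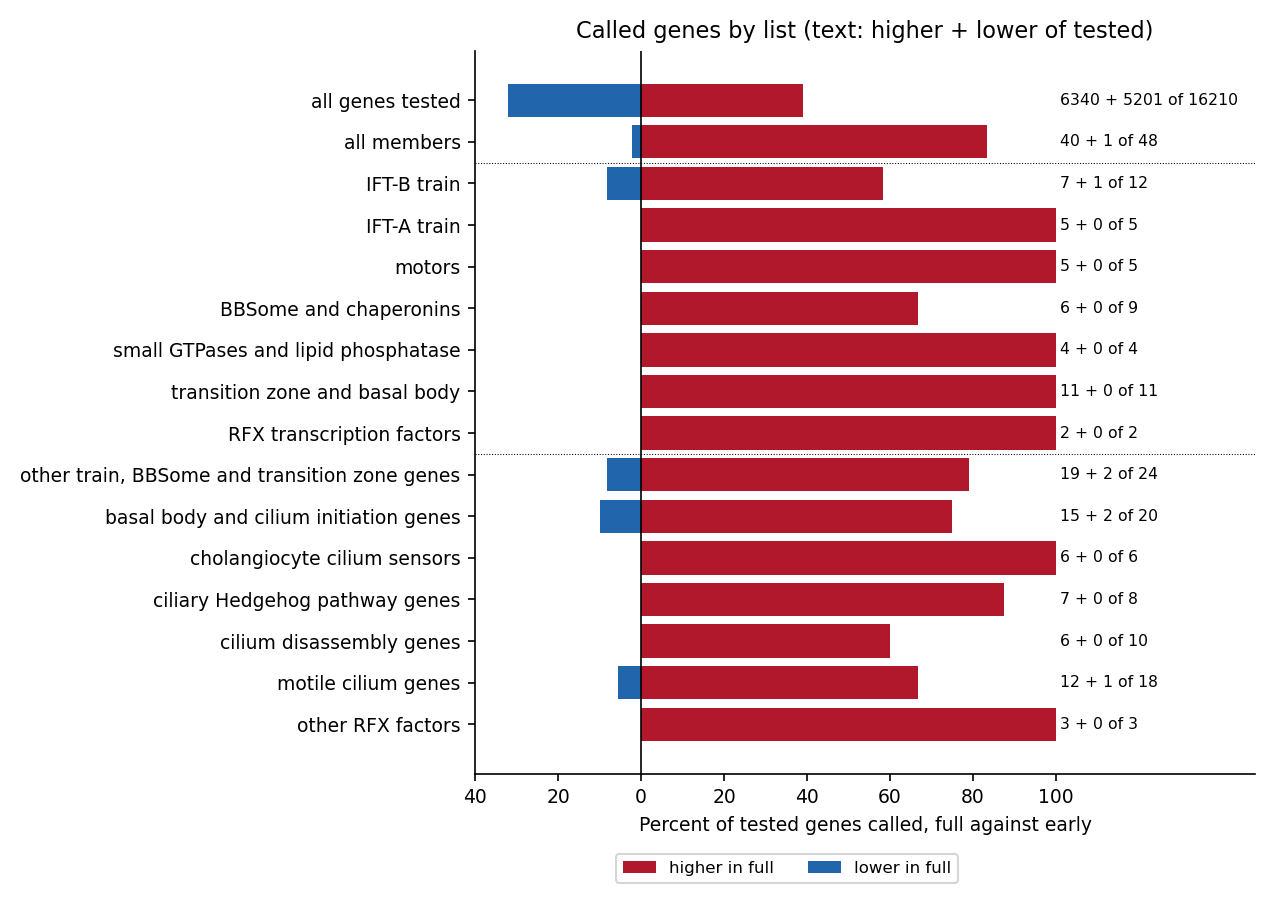
Percent of the tested genes of each list called higher (red, to the right) or lower (blue, to the left) in full against early, with the numbers beside each bar, for all genes tested, the 48 cilium assembly genes, their 7 roles and 7 further lists. The 48 genes have 40 higher and 1 lower, where 39.1% of all genes are higher and 32.1% lower.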

How the data were processed

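Per the labels, a provider made the libraries from RNA of the sorted cells. The authors deposited raw counts per gene symbol, which were used for every test, and the same counts divided by a size factor, a signal that was not used here. STAR 2.7.10b, featureCounts 2.0.1, DESeq2 and GRCm39 are named in the submitters' processing notes. The annotation, strandedness and treatment of multi-mapping reads were not given in the sources used here. So genes that share reads are uncertain.

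Genes were kept by filterByExpr (16210 genes, at least 99.857% of the counts of each library) with TMM factors as scale. A single edgeR fit held all 12 libraries (edgeR 4.0.16, R 4.3.3), with a quasi-likelihood test per contrast and Benjamini-Hochberg adjustment over all genes tested at 0.05. The common biological coefficient of variation was 14.8%. Fold changes are log2 values from the fit. The procedure was checked on counts with known changes. Exon lengths and overlaps came from GENCODE on GRCm38, and figures from matplotlib 3.10.9.

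The members, lists and tests were chosen with earlier results of these data known. Full values are given for the 4 called members with the largest change in each direction per comparison, less the p-values withheld above. They are also given for Ift88, Dync2h1, Arl13b, Cep290, Rfx2 and Rfx3. Of each further list, the rule names up to 3 called genes with the largest change, and some list members are not reported here. Other genes given with values were chosen after their values were seen.

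Same-numbered libraries deviated together across genes, with r of 0.121 to 0.293 between intermediate and early, of 0.137 to 0.322 between full and intermediate, and of 0.170 to 0.257 between BEC and full. The numbers in the labels thus pair the libraries there, but for full and early 1 pair had r of 0.096. Alternatives covered DESeq2 1.42.0, other scaling, filters, the replicate block, a minimum fold change, fewer libraries and each library left out.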

Additional observations from a re-analysis of the deposited data

How the results depend on the processing

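No member's called change took the opposite sign under any alternative run. With total counts, Ift46, Traf3ip1, Bbs7 and Bbs10 in full against early, and Ift52 in intermediate against early (−0.06 to 0.60, edgeR adjusted p 0.000237), went from small negative changes that were not called to calls of higher. Without scaling factors (total counts), 0 members were lower in intermediate than early, 0 in full than intermediate and 0 in full than early, and 37 were lower in the contrast of the second step against the first. Against a minimum 1.5-fold change, by construction, 0 members were lower in intermediate than early, 4 were higher and 0 lower in full than intermediate, 1 was higher and 0 lower in BEC than full, and 7 were lower in the contrast of steps. Without a filter on low counts, 2 were lower in full than intermediate, and 11 were higher and 0 lower in BEC than full. With median-of-ratios factors 0 were lower in BEC than full. With the replicate block, which follows the pairing of the libraries, 2 were lower in full than intermediate, and the counts of members higher were 41, 31, 20 and 41 in the 4 comparisons. The block called Ift27 in full against early (0.30, edgeR adjusted p 0.037), and 22 members lower in the contrast of steps. Leaving out 1 library at a time gave 0 to 2 lower in full than intermediate, 10 to 15 higher and 0 to 1 lower in BEC than full. It gave 37 to 41 higher in intermediate than early, 23 to 27 in full than intermediate and 40 to 41 in full than early. Where a cause is not stated, it was not tested. Depth limits Nphp4, Kif17 and Tmem231 in early, where 3 counts equal 0.237 to 0.273 CPM.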
